A study of Mus musculus with 8 samples.

Results

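Near the centromere end of mouse chromosome 14 lies a dense array of predicted genes with near-identical sequences. The rows of the deposited count table were taken as members when they lay on chromosome 14, began between position 3000000 and 7700000 (GRCm38) and had a symbol that starts with Gm or ends in Rik. The rule took 177 of the table's 55487 rows. The window held 1 further row, the Esd pseudogene Esd-ps. By annotation the members comprised 99 protein-coding genes, 56 processed pseudogenes, 11 unprocessed pseudogenes, 8 processed transcripts and 3 long intergenic RNAs, with 84 on the plus strand and 93 on the minus strand. The array was chosen by the read counts of some of its rows, among them Gm5796 and Gm3488, which differed between the genotypes in these same libraries. All genotype values of its members, including which rows a fit across all genes called, are therefore given as a description, without p-values, and support nothing.

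Segmental duplication copies a stretch of chromosome next to itself, and repeated rounds leave tandem arrays whose copies stay so alike that short sequencing reads often match many of them at once. The coding genes of this array are known as the takusan or alpha-takusan family, for which RefSeq lists Tksn as a synonym of 2610042L04Rik. They derive in part from Dlg5, a scaffold protein of the discs-large group, and some family proteins bind the synaptic scaffold PSD-95 (Dlg4) in neurons. Their role in germ cells is not given in the sources used here.

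The libraries came from total RNA of sorted germ cells of fetal mouse testis on a C57BL/6 background, at a fetal age that the labels do not give. Of the 8 libraries, 4 are labelled WT, from littermates that carry the Oct4-eGFP reporter on both alleles, and 4 are labelled KO, from animals that carry the same reporter and are null for Rhox10, an X-linked homeobox gene of the Rhox cluster. Sequences of Oct4 (Pou5f1) drive the green fluorescent protein of that reporter. Every library was made from 1 ng of RNA with a stranded kit for small inputs. Whether each is 1 animal or a pool, and which libraries share a litter, is not given in the sources used here, so differences between libraries may be partly technical.

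Rhox10 itself had 18, 25, 19 and 17 counts in the libraries labelled WT1 to WT4 and 14, 10, 18 and 22 in those labelled KO1 to KO4. These groups overlapped, and the deleted part of Rhox10 is not given in the labels, so the counts do not check the KO labels. Every direction below is between libraries by their labels. The germ-cell genes Ddx4 and Dazl averaged 44.4 ± 3.39 and 18.4 ± 1.82 CPM (counts scaled to the size of the library; SD, n = 4) in libraries labelled WT, and 43.3 ± 0.966 and 23.6 ± 2.19 in those labelled KO. Library totals were 16346977 to 20311338 counts, of which the array took 0.0093% in libraries labelled WT and 0.0135% in those labelled KO. With the WT label, the listed Leydig, Sertoli, erythroid and endothelial genes had higher sums than the listed germ-cell genes. The epithelial, macrophage, and neuronal and glial lists had lower sums. The lists differ in their genes, so such sums do not measure the share of each cell type. In the libraries labelled WT, Leydig cell genes summed to 2796 to 2828 CPM and Sertoli cell genes to 526 to 550 CPM. The germ-cell genes summed to 106 to 118 CPM. Which cells gave rise to the counts of the array was not tested. In bulk RNA of this kind, fewer cells of a type and less RNA per cell cannot be told apart.

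The members' transcripts in the GENCODE M21 annotation, of the same build, fell into 5 sequence groups. The main group, called family transcripts here, had 103 rows with a median length of 1817 bases. Rows were placed in it when their best match among annotated transcripts of other genes was Gm2237, Gm2244 or Gm5458. That match was 91.2 to 99.6% identical over its aligned part (median 96.7%), so a close match is partly set by this rule. The closest gene with a proper name was AY358078 at 76.5 to 79.8% in 102 rows. A group of 35 short processed pseudogenes (median 487 bases) was distantly like Hmgb2, which encodes a chromatin protein, at 71.3 to 74.7% in 34 rows. Pseudogenes of Rpl3, a ribosomal protein, made up 13 rows (89.8 to 90.5% identical to Rpl3), and pseudogenes of Esd, an esterase, 8 rows (96.5 to 96.9% identical to Esd). The remaining 18 rows were other transcripts.

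Because some family rows differ by single bases in parts of their sequence, a short stretch can show how they are told apart there. The 61 bases below are coding sequence of 7 rows, Gm3095, Gm3317, Gm3488, Gm3629, Gm3696, Gm5796 and Gm8108, and its first 50 bases were found in no other member. In Gm5796 they lie at chr14:4034662-4034722 on the plus strand, and in Gm3629 at chr14:6589645-6589705 on the minus strand. The stretch was looked for after the values had been seen, as the longest coding run that lay in the most rows called higher and in no tested family row that was not called (18 such rows). A row counts as called where edgeR gave an adjusted p under 0.05 for libraries labelled KO against those labelled WT. The same window of 8 other rows follows, with capitals at bases that differ from it.
7 rows (Gm5796 and others): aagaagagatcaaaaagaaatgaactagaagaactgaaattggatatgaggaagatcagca
Gm3558: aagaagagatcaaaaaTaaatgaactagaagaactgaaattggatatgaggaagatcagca
Gm2974: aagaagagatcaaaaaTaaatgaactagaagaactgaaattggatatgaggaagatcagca
Gm3411: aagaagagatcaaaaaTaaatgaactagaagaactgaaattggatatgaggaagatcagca
Gm3020: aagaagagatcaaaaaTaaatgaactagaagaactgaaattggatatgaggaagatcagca
2610042L04Rik: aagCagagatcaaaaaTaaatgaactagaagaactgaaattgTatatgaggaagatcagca
Gm8237: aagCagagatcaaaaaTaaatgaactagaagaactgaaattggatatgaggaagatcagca
D830030K20Rik: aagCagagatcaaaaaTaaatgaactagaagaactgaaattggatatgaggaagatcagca
Gm3512: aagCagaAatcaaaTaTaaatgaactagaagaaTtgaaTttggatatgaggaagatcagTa
A single base separates Gm3558, Gm2974, Gm3411 and Gm3020 from the 7 rows in this window. Gm8237 and D830030K20Rik carry the same letters as each other with 2 differences, 2610042L04Rik has 3 and Gm3512 has 7. Over whole coding sequences, Gm5796 and Gm3696 were 99.02% identical (6 differences in 612 aligned bases), Gm5796 and Gm8108 98.22%, and Gm8237 and D830030K20Rik 94.17%.

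The region before the start of some copies is shared as well. Of the members, 70 had RefSeq promoters (GRCm38.p6, 250 bases before to 50 after a start), 103 in all, including 11 of the 16 rows called higher below. The CArG box, known as the binding consensus of serum response factor and searched by that consensus, which reads the same on both strands, was in 11 of these 103 promoters, from 10 members, against 535 (1.63%) of 32851 promoters of all genes. Its holders were 3 rows called higher, 6 tested rows that were not called and 1 row that was not tested. The E-box CACGTG was in 10 of the 103 promoters, from 5 members (7.15% of all promoters). The homeodomain core TAATTA was in 1 of the 103, from Gm8271 (5.29% of all promoters, both strands). No letters of 1 motif hold another. For 5 of the holders, 60 bases from the strand of the gene are shown, with the box in capitals, for rows called higher and rows not called.
Gm8108 (called, chr14:4110216-4110275, plus strand): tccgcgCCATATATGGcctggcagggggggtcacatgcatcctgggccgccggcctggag
Gm3696 (called, chr14:7105694-7105753, minus strand): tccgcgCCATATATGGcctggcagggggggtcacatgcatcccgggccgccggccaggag
Gm3512 (not called, chr14:7174825-7174884, minus strand): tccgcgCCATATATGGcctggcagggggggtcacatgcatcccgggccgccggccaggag
Gm3558 (called, chr14:7568753-7568812, minus strand): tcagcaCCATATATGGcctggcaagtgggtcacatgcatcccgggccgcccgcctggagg
D830030K20Rik (not called, chr14:3208269-3208328, plus strand): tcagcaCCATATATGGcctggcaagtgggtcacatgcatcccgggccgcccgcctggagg
Gm3696 and Gm3512 have the same letters here, as do Gm3558 and D830030K20Rik. In each pair 1 row was called and the other was not, but Gm3696 and Gm3558 lost their calls with DESeq2, and the difference in fold change within a pair was not tested. The box began 130 bases before the RefSeq start in Gm8108, 244 in Gm3696, 81 in Gm3512, 240 in Gm3558 and 218 in D830030K20Rik. A match of letters does not show that a factor binds there.

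Summed over all 177 rows, the array gave 1560, 2033, 1794 and 1412 counts in libraries WT1 to WT4 and 2378, 2421, 2528 and 2458 in KO1 to KO4. This came to 92.4 ± 7.96 CPM with the WT label (81.4 to 100.5) and 137 ± 9.44 CPM with the KO label (125.6 to 145.0), a ratio of 1.48. All 4 libraries labelled KO lay above all 4 labelled WT. The family transcripts made up 39.4 of the 44.4 CPM between the means, with 77.0 ± 7.25 CPM against 116 ± 8.39. The Esd pseudogenes went the other way in their means, 10.4 ± 3.66 CPM against 9.91 ± 1.44, and their groups overlapped, WT1 being the highest library at 15.7 CPM. Rpl3 pseudogenes were near 0, with 8, 0, 0 and 6 summed counts in WT1 to WT4 and 24, 14, 25 and 14 in KO1 to KO4. The 18 other transcripts summed to 1.25 ± 0.274 CPM and 3.96 ± 1.13 CPM, and the short processed pseudogenes to 3.62 ± 1.37 and 5.54 ± 1.94 CPM with overlap. When copies share reads, such sums can count 1 read in several rows, so they measure the counts of the array and not its transcripts.

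**Figure D1:**
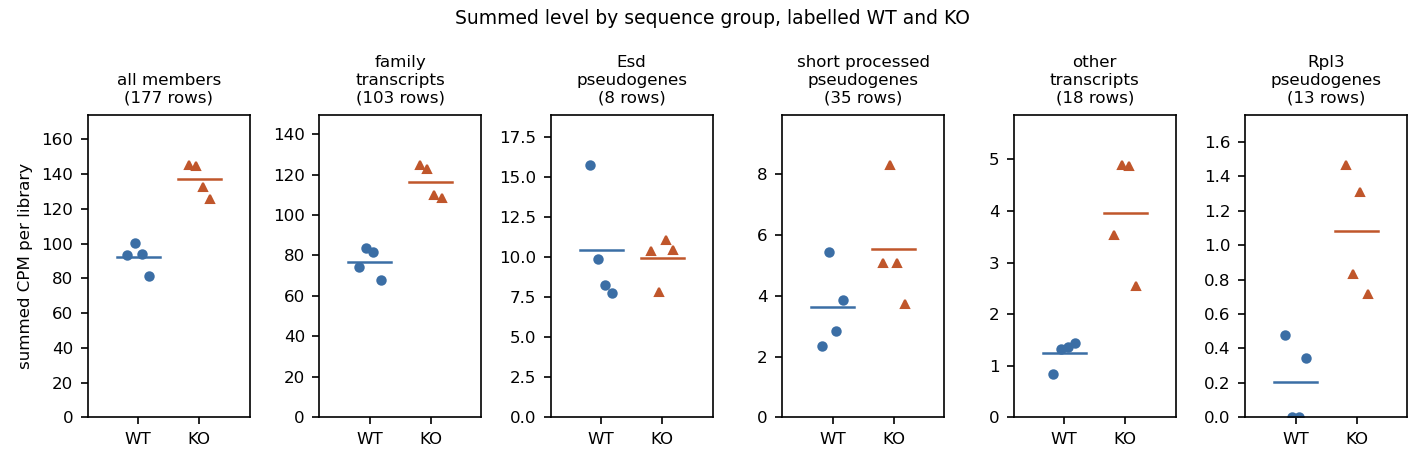
Summed CPM of the array and of its 5 sequence groups in each library, with WT and KO as labelled. Each point is 1 library and each line the mean of 4. The family transcripts separate the labels (68.0 to 83.8 against 108 to 125 CPM), while the Esd pseudogenes overlap; the vertical axes differ between panels and start at 0.

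The filter on low counts kept 40 members and left out 137, of which 2 had no count in any library. A row was called at an adjusted p under 0.05 in edgeR's quasi-likelihood test over all 23190 genes tested. Of the 40 tested members 16 were called higher with the KO label and 0 lower, where 2.35% of all genes tested were called higher and 2.8% lower (1.84% and 3.61% when scaled by library totals alone). The count was also 16 with that scaling, with DESeq2 size factors (2.32% of all genes) and with upper quartiles (2.73%). It was 15 with a filter of 1 CPM in 4 libraries (2.68%), 17 with limma voom (2.35%), 14 with DESeq2's test (1.71%) and 26 with no filter (0.982%). All 16 were family transcripts, out of 34 of that group tested. Fitted log2 fold changes were above 0 in 36 of the tested members and below 0 in 4, with a median of 0.69 against 0.002 over all genes tested. The libraries of the labels did not overlap in 20 tested members that were higher with the KO label and in 1 that was lower, where 4.72% of all genes tested did so in each direction. Since these rows were chosen with this contrast in view, nothing is read from these counts. For 11 of the tested members, 4 of them called, the mean with the WT label was under the filter's level of 0.554 CPM. Only in Gm8108 was every library labelled WT under that level, so that this row passed through libraries labelled KO alone and had to differ. The filter asks for 4 libraries, so a row with any library labelled WT under the level also needed libraries labelled KO to pass. This held for Gm3095, where only WT3 reached the level (0.577 CPM), and for Gm3002 and Gm10409 (WT4 at 0.231 and 0.288 CPM). Such rows were therefore partly selected by their level with the KO label.

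Gm5796, the member with the largest absolute difference, had 11, 39, 24 and 28 counts in WT1 to WT4 and 95, 79, 77 and 77 in KO1 to KO4. This was 1.37 ± 0.544 against 4.62 ± 0.856 CPM, a log2 fold change of 1.72 (SE 0.20). Every library labelled KO had 3.94 CPM or more, above the highest labelled WT at 1.93, and WT1 stood lowest. Gm3488 had 12, 15, 11 and 16 counts, then 55, 45, 39 and 37, with a log2 fold change of 1.73 (SE 0.27). Gm3317, whose annotated transcript of 519 bases is contained whole in that of Gm3488, followed it closely at 12, 13, 11 and 14 counts, then 51, 45, 38 and 37. The 2 rows are annotated at separate positions, but reads from the shared transcript cannot be assigned to 1 of them. Their counts may therefore not be independent.

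The largest fold changes were in rows with very few counts under the WT label. Gm3095 had 6, 5, 11 and 9 counts in WT1 to WT4 and 49, 39, 30 and 35 in KO1 to KO4 (log2 fold change 2.32, SE 0.32, the highest of the members tested). Gm8108 had 8, 9, 8 and 7, then 50, 35, 36 and 33 (2.29, SE 0.31). In both rows, KO1 was the highest library and every library labelled KO exceeded every one labelled WT. Gm3629 was alike, with 9, 7, 12 and 13 counts against 51, 39, 31 and 36 (1.96, SE 0.30). Gm3252 varied more among libraries labelled KO, with 10, 7, 5 and 4 counts against 43, 12, 32 and 24 (2.10, SE 0.36). There KO2 came close to WT1, 0.715 against 0.600 CPM.

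KO2 was also the lowest library labelled KO in Gm10409, Gm3002 and Gm3020, and nearly so in Gm3591. Gm10409 had 13, 19, 12 and 5 counts with the WT label and 44, 20, 33 and 41 with the KO label (log2 fold change 1.52, SE 0.30). Gm3020 shares 99.7% of its 50-base stretches with Gm10409, and had 27, 29, 23 and 10 against 52, 31, 40 and 60 (1.07, SE 0.24). In both, WT4 was the lowest library. Gm3002 had 10, 14, 10 and 4 against 38, 15, 24 and 27 counts (1.48, SE 0.34), and its annotated span of chr14:3810074-3966518 overlaps the start of Gm3095 at position 3963547 on the same strand, so reads from this stretch could go to either. Gm3591 had 13, 22, 15 and 13 against 54, 31, 35 and 42 counts (1.40, SE 0.27).

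The other called rows included the highest levels under the WT label, with Gm3558, described below, the highest of them. Gm2974 had 25, 51, 39 and 22 counts in WT1 to WT4 and 69, 88, 77 and 64 in KO1 to KO4 (log2 fold change 1.16, SE 0.19), without overlap. 2610042L04Rik, the row that bears the family's name, had 10, 26, 13 and 12 against 30, 31, 33 and 37 counts (1.13, SE 0.28), with WT2 apart from the other libraries labelled WT. Gm3411 had 44, 70, 46 and 30 against 69, 77, 71 and 83 counts (0.69, SE 0.17), and was not called when WT4, its lowest library, was left out. Gm3696 had 13, 46, 31 and 29 against 48, 56, 48 and 44 counts (0.76, SE 0.22). It was the only called row whose groups overlapped, WT2 lying above KO4 in CPM (2.27 against 2.25), and the call was lost without WT1, without KO2 and with DESeq2.

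**Figure D2:**
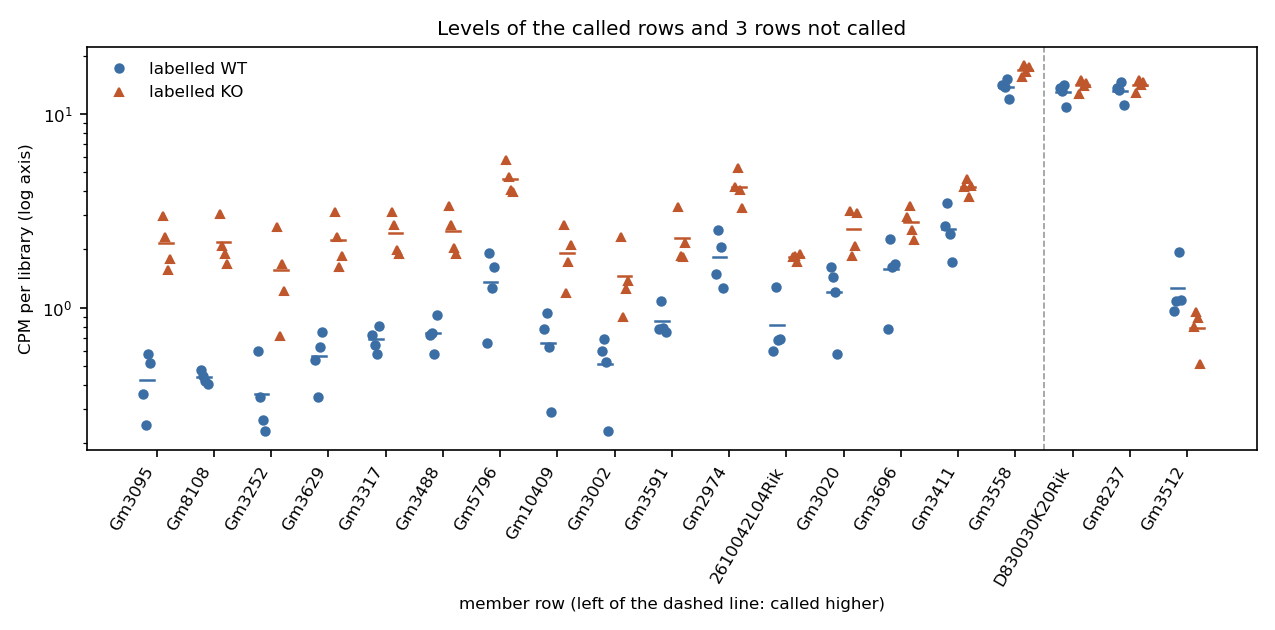
CPM in each library, on a log axis, for the 16 rows called higher (ordered by fold change) and 3 rows that were not called. Circles are libraries labelled WT, triangles those labelled KO, and lines the mean of 4. The first 6 rows sit under 1 CPM in all 4 libraries labelled WT, and Gm3558 at the right end of the called rows differs by the smallest fold.

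The 3 rows with the most counts had the smallest fold changes of the members named by level, and 2 of them had nearly equal counts. D830030K20Rik had 227, 266, 269 and 189 counts in WT1 to WT4 and 209, 252, 266 and 284 in KO1 to KO4. Gm8237 had 227, 269, 277 and 193, then 210, 251, 268 and 286. The 2 rows differed by at most 8 counts in any library although they lie on opposite strands and share only 6.28% of the 50-base stretches of Gm8237, the longest identical stretch being 89 bases. Neither was called (log2 fold change 0.12, SE 0.09, and 0.10, SE 0.09).

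Gm3558 had 236, 279, 289 and 206 counts with the WT label and 254, 299, 315 and 343 with the KO label (log2 fold change 0.29, SE 0.08). It was called, but not with DESeq2 or without WT4, KO2 or KO4. Its counts exceeded those of Gm8237 by 9, 10, 12 and 13 in WT1 to WT4 and by 44, 48, 47 and 57 in KO1 to KO4. Like the counts of Gm3488 and Gm3317, the excess was under 20 in every library labelled WT and between 37 and 57 in every one labelled KO, although KO1 was its lowest of the latter and their highest. Gm3558 shares 28.2% of its 50-base stretches with Gm8237, with a longest identical run of 201 bases. Which copies gave rise to the reads counted in these rows was not tested.

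**Figure D3:**
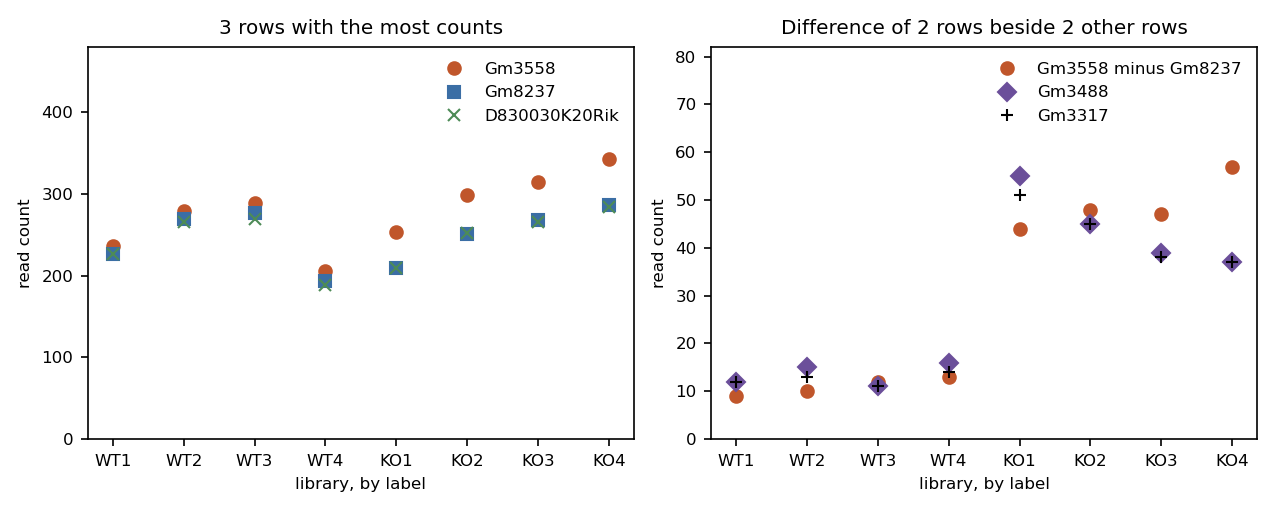
Read counts by library. The left panel plots the 3 rows with the most counts, where D830030K20Rik and Gm8237 lie on each other. The right panel plots the excess of Gm3558 over Gm8237 (9 to 13 counts with the WT label, 44 to 57 with the KO label) beside the counts of Gm3488 and Gm3317.

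Together, the 16 called rows summed to 28.4 ± 3.29 CPM under the WT label against 55.7 ± 6.17 CPM under KO. These rows were picked by this same difference, so their sums had to differ. The 24 tested rows that were not called summed to 49.8 ± 4.79 and 57.4 ± 2.28 CPM. Their sums did not overlap between the labels either (42.8 to 53.6 against 54.8 to 60.3 CPM). Per kilobase of annotated length, the highest members over all libraries were Gm3558 at 7.44, Gm8237 at 6.63 and D830030K20Rik at 5.98 CPM. Gm3317 followed at 2.99, on a transcript of only 519 bases. Gm5796 reached 1.65, and Gm3488 0.831 on the same per-kilobase scale.

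Among tested rows that were not called, Gm3173 had 0.808 ± 0.335 against 1.49 ± 0.104 CPM (log2 fold change 0.90, SE 0.30) and no overlap. It was called by limma voom and with a filter of 1 CPM. Gm3512 was the 1 tested member whose libraries labelled KO all lay below those labelled WT, with 16, 22, 37 and 19 counts against 13, 16, 17 and 10 (log2 fold change -0.70, SE 0.32, not called). The 6 tested Esd pseudogenes had log2 fold changes from -0.19 to 0.12 and none was called. Gm17222 and Gm17121 among them had counts within 5% of each other, 115 and 113 over the libraries labelled WT and 121 and 119 over those labelled KO.

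The 137 rows left out by the filter held 1056 counts over the libraries labelled WT and 1686 over those labelled KO, or 14.3 ± 1.61 and 23.7 ± 5.03 CPM. Their mean CPM was higher with the KO label in 95 rows and lower in 40, and the libraries did not overlap in 22 that were higher and in 2 that were lower, where 1.15% and 1.11% of all 21905 rows with a count that the filter left out did so. Those rows were not matched to the members by level. Rows named here were chosen after their values had been seen. Gm3182 and Gm7876, which lie apart on the plus strand, had the same counts in every library, 6, 6, 3 and 2, then 30, 8, 20 and 21, again with a low KO2. The unprocessed pseudogenes Gm11109 and Gm21965 also matched each other, with 0 counts in each library labelled WT, which allows up to 3 in each, and 1, 4, 8 and 1 in KO1 to KO4. Of the short processed pseudogenes, Gm17129 had 2, 4, 1 and 2 counts, then 13, 20, 12 and 6. In the opposite direction, Gm3542 and Gm9603 each had 2, 6, 3 and 2 counts with the WT label and 1, 0, 2 and 0 with the KO label.

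Near-identity within the array was measured on the transcripts. The median member had 89.8% of its 50-base stretches also in another gene (29.6 to 100%), and for 42 members this was true of every stretch. For stretches of 100 bases the median was 78.4%. The called rows ranged from 72.3% (2610042L04Rik) to 100% (Gm10409 and Gm3317). In the table, 37 rows fell into 16 groups whose counts agreed within 5% in every library. Only D830030K20Rik with Gm8237, and Gm17222 with Gm17121, were groups of tested rows. The rows of the other groups had few counts, where such agreement means the same small numbers. How the authors treated reads with several positions is not given in the sources used here.

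**Figure D4:**
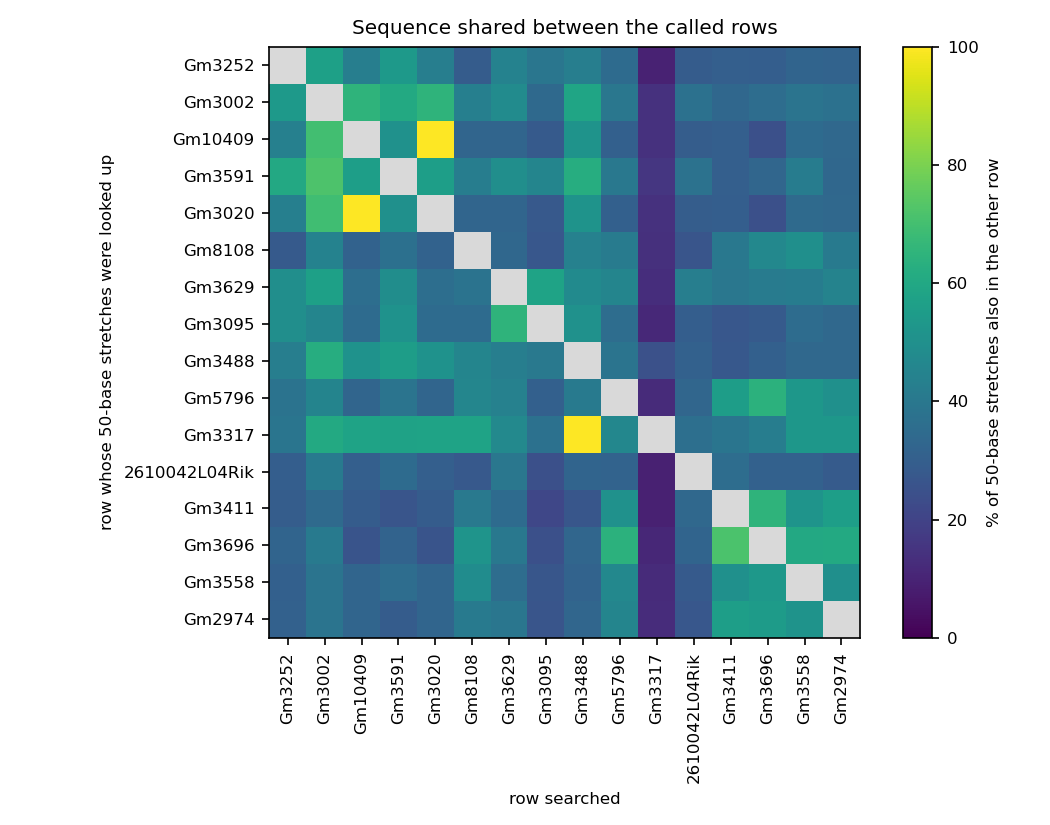
Share of the 50-base stretches of each called row (vertical) that are also found in another called row (horizontal), with grey on the diagonal. Gm10409 with Gm3020, and Gm3317 in Gm3488, reach 99.7 to 100%; rows are ordered by their level in KO2 relative to KO1.

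The called rows also differed in which library labelled KO was low. Relative to KO1, the level in KO2 was 0.273 in Gm3252, 0.386 in Gm3002, 0.444 in Gm10409, 0.561 in Gm3591 and 0.583 in Gm3020. It was 0.684 to 0.863 in Gm8108, Gm3629, Gm3095, Gm3488, Gm5796 and Gm3317, where KO3 or KO4 was lowest. The remaining 5 rows, 2610042L04Rik, Gm3411, Gm3696, Gm3558 and Gm2974, were 1.01 to 1.25 times as high in KO2 as in KO1. This order describes 4 libraries and was not tested.

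Along the array the called rows ran from chr14:3412614 to a last start at 7545151. Of the 16, 11 lay on the plus strand, all with starts before that of the first called minus-strand row, Gm3411 (6259747). Summed over all family transcripts, the 50 rows on the plus strand had 30.5 ± 3.07 CPM by WT label and 56.8 ± 6.07 CPM by KO label, a ratio of 1.86. The 53 rows on the minus strand, which include Gm8237 and Gm3558, had 46.4 ± 4.56 and 59.5 ± 3.41 CPM, a ratio of 1.28. Neither sum overlapped between labels. The difference between the strands was not tested.

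**Figure D5:**
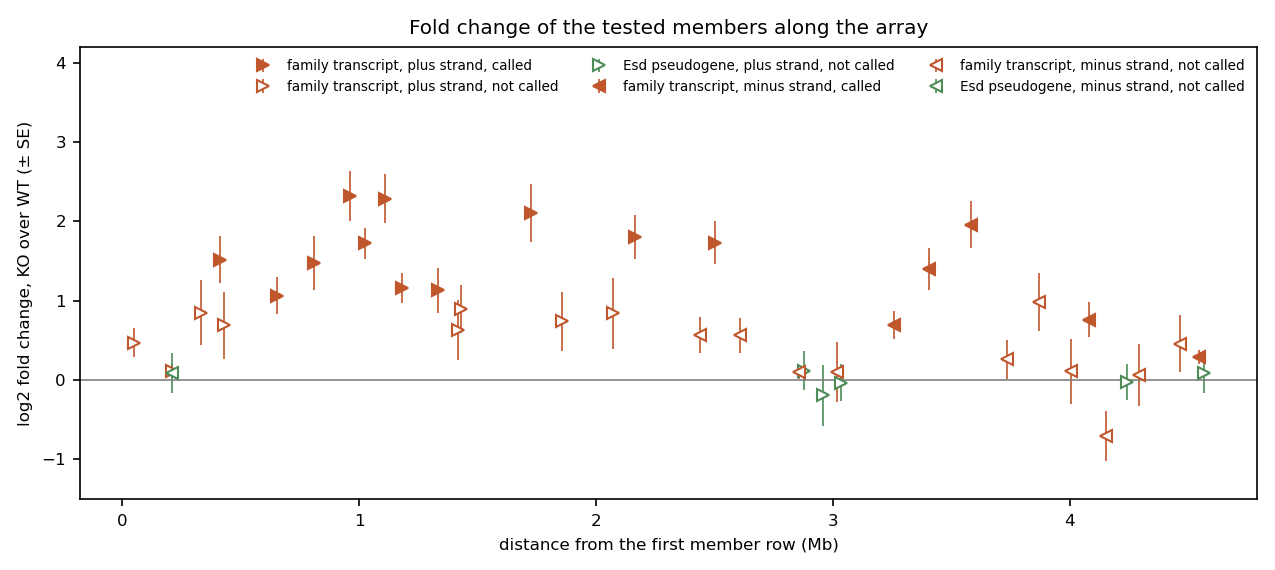
Log2 fold change of the 40 tested members, KO over WT as labelled, with its standard error, against distance from the first member row in megabases. Filled triangles are called rows, and triangles point right for the plus and left for the minus strand. Family transcripts called higher reach 2.32, while Esd pseudogenes (green) lie between -0.19 and 0.12.

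At the edges of the window the rows had few counts. Just inside, Gm48109 (start 3000669) averaged 0.0824 ± 0.109 and 0.0834 ± 0.0761 CPM and Gm2888 (3030002) 0.0288 ± 0.0577 and 0.0560 ± 0.0050 CPM, WT before KO. At the far end, Gm47876 (7627888) averaged 0.246 ± 0.210 and 0.194 ± 0.131 CPM and Gm10128 (7640895) 0.223 ± 0.157 and 0.378 ± 0.154 CPM. The first rows beyond it were Gm10044 (7744792), at 1.36 ± 0.327 and 1.43 ± 0.389 CPM, and Gm16741 (7749945), at 0.210 ± 0.165 and 0.228 ± 0.157 CPM. None of these 6 separated the labels. Esd-ps, inside the window but outside the rule, had 1.76 ± 0.363 and 1.83 ± 0.520 CPM.

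Relatives of the family elsewhere on chromosome 14 were found by sequence. The 3 closest lie near Gm2237 (chr14:19563800-19585135, minus strand), at 97.5 to 98.9% identity to a member, and summed to 3.26 ± 0.752 CPM under the WT label against 6.32 ± 1.06 CPM under KO, without overlap. Gm2237 had 33, 61, 72 and 57 counts in WT1 to WT4 and 116, 77, 103 and 118 in KO1 to KO4 (log2 fold change 0.92, SE 0.16, called higher). A more distant set of 30 rows between positions 41278805 and 44750340, at 75.7 to 79.9% identity, summed to 18.3 ± 1.43 and 18.5 ± 1.83 CPM with overlap, and of 3 tested none was called. The long RNA AC160336.1 alone had 10.4 ± 0.561 and 10.5 ± 1.42 CPM of this, and the other 29 rows summed to 7.91 ± 1.27 and 7.94 ± 0.719 CPM, also with overlap. Gm9732, with 13, 26, 26 and 18 counts against 9, 10, 9 and 15, was lower with the KO label without overlap in CPM. Gm8065, Gm7991, Gm3008 and Gm7152 were higher without overlap. Each had 2 or 3 counts over all libraries labelled WT and 18 to 20 over those labelled KO. Their counts were nearly equal, as in Gm8065 (0, 2, 0 and 0, then 2, 8, 6 and 3) and Gm3008 (1, 2, 0 and 0, then 2, 8, 7 and 3). The same reads could therefore be counted in each. These rows were picked after their values had been seen. Over the whole table, 4.72% of tested genes were lower without overlap. Of rows with a count that the filter left out, 1.15% were higher without overlap. Reads shared with the members could enter the counts of the close set; their part was not tested.

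Dlg5 and other scaffold genes were listed as the family's relatives and partners. Dlg5 had 239 ± 4.72 CPM under the WT label against 239 ± 6.40 under KO (log2 fold change 0.0004, SE 0.03). Of 32 scaffold genes, all tested, 2 were called higher and 0 lower (median log2 fold change 0.03), where 2.35% and 2.8% of all genes tested were. The count was 1 with library totals alone, with no filter, with DESeq2's test and with the replicate number as a block. Mpp7, a polarity scaffold, was among the called genes (25.8 ± 0.664 against 30.8 ± 0.775 CPM, log2 fold change 0.25, SE 0.06). Dlg4, which encodes PSD-95, had 64.6 ± 1.38 against 62.1 ± 4.47 CPM and was not called.

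Markers of other cell types differed between the labels along with the array. Over all genes tested, 2.35% were called higher and 2.8% lower. All 6 epithelial genes of ducts and tubules were called higher (summed 35.7 to 38.5 CPM with the WT label, 67.6 to 76.9 with the KO label). Of 6 erythroid genes 4 were called lower (210 to 225 against 81.8 to 86.2 CPM), and of 5 Leydig cell genes 4 lower (2796 to 2828 against 2538 to 2577 CPM). Of 5 endothelial genes 2 were called higher (162 to 180 against 186 to 193 CPM), and of 7 tested germ-cell genes 2 (106 to 118 against 115 to 124 CPM over 8 genes). None of 6 Sertoli cell genes, 3 tested macrophage genes or 5 tested neuronal and glial genes was called. The macrophage genes still summed without overlap, to 19.8 to 20.6 against 15.9 to 18.8 CPM over 5 genes. The neuronal and glial genes summed to 18.1 to 20.1 against 17.6 to 19.4 CPM over 7 genes. The Sertoli cell genes summed to 526 to 550 against 520 to 540 CPM. No listed marker was at 0 in all libraries. Their part in the difference of the array was not tested.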

How the data were processed

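RNA was measured in 8 libraries, 4 labelled WT and 4 labelled KO. The values are read counts per gene, deposited by the authors as 1 table without normalization. The build was GRCm38, and STAR 2.5.2b, featureCounts, Subread and DESeq2 are named, per the submitters' processing notes. Roles, strand setting and treatment of reads with several positions are not given in the sources used here. Copies of near-identical sequence are therefore uncertain.

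Counts were tested in R 4.3.3 with edgeR 4.0.16 (robust quasi-likelihood test, two-sided, TMM scaling, filterByExpr, which kept 23190 genes with about 10 counts, 0.554 CPM, in 4 libraries). Adjusted p-values are Benjamini-Hochberg over all genes tested, with a threshold of 0.05. CPM are TMM-scaled. The members were chosen with this contrast in view, and the members and lists with earlier results of these data known, so their genotype values carry no p. Sums, the shared stretch and near-equal rows have no test.

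The table's IDs gave symbols through GENCODE M21 for 55141 of 55487 rows, and 176 members had the same position there. Transcripts were compared with BLAST 2.17.0 and MAFFT 7.526, after GENCODE M21, and by exact stretches of 50 and 100 bases, on the transcript strand. Promoters are those of RefSeq. No protein sequence was used here.

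Rows named were Gm5796, Gm3488, the 6 members with the highest mean CPM, up to 12 called members with the largest fold, rows at the window's bounds, Esd-ps, Dlg5 and called scaffold genes, and Rhox10, Ddx4 and Dazl. Others were named after their values had been seen. The alternatives were other scalings, no filter or 1 CPM in 4 libraries, DESeq2 1.42.0, limma 3.58.1 voom, the replicate number as a block, each library left out, and sums over fewer rows. Added after seeing the data were a wider tolerance for near-equal rows and a sum without 3 rows. Same-numbered libraries did not deviate together, so numbers were not taken as pairs. Values of 1 called scaffold gene are not reported here.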

Additional observations from a re-analysis of the deposited data

Results flagged for a closer look

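In 68 groups of 4 libraries checked for a single library far from the others, 2 stood out, where chance alone picks about 1 in 20. In 2610042L04Rik, WT2 lay above the other libraries labelled WT (26 counts against 10, 13 and 12), the gap to the next library being 0.866 of the group's range in CPM. In Gm3591, WT2 was again highest (22 counts against 13, 15 and 13), with a gap of 0.889 of the range. Both rows were still called higher when WT2 was left out.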

How the results depend on the processing

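The number of members called higher was 16 with each scaling, 14 with DESeq2, 17 with limma voom, 15 with the filter of 1 CPM and 26 with no filter, and 16 to 22 when single libraries were left out; no member was called lower in any of these. Over all genes 1193 were called, and 794 with DESeq2. Leaving out single libraries gave 898 to 1040 calls over all genes. By scaling, 544 genes were higher and 649 lower with TMM, 633 and 555 with upper quartiles, and 426 and 836 with library totals alone. The scaffold list had 2 calls, and 1 with library totals alone, with no filter and with DESeq2; it had 1 to 2 when single libraries were left out. The log2 ratio of the summed array was 0.57, and 0.80 without D830030K20Rik, Gm8237 and Gm3558; leaving out single libraries gave 0.51 to 0.61. With the replicate block 16 members, 1249 genes and 1 scaffold gene were called, and the numbers did not pair the libraries (correlations of 0.0195, 0.0215, -0.00052 and -0.0097 for the 4 numbers). No fold change reversed among the 16 called rows, D830030K20Rik and Gm8237. Other named members were not part of this check. Low counts limit the rows: most members had too few to be tested, and reads of near-identical copies cannot be assigned to 1 row.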

Other observations

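In 6 of the called rows the mean CPM with the KO label exceeded that with the WT label by a similar amount: Gm3411 by 1.63, Gm3629 by 1.66, Gm3317 by 1.73, Gm8108 by 1.74, Gm3095 by 1.74 and Gm3488 by 1.75 CPM. The same rows ranged from 0.426 CPM in Gm3095 to 2.56 CPM in Gm3411 with the WT label, so their fold changes differ mainly through that level. These rows were picked after their values had been seen. Gm3558 (3.08 CPM) and Gm5796 (3.25 CPM) had the largest differences of the called rows.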
